A study of Mus musculus with 3 samples.

Results

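The genes described here are 10 regulators and classical markers of the epithelial-mesenchymal transition, namely the transcription factors *Snai1*, *Snai2*, *Twist1*, *Twist2*, *Zeb1* and *Zeb2*, the cadherins *Cdh1* and *Cdh2*, the intermediate filament gene *Vim* and the epithelial adhesion gene *Epcam*. They were chosen by name and found on the arrays through the RefSeq accession of each probe, which gave 13 probes of 56605 and 10 of the 22907 genes that could be named. 8 of them had 1 probe each, and *Zeb1* and *Zeb2* had several.

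In the epithelial-mesenchymal transition, cells held together in sheets by E-cadherin (*Cdh1*) lose these junctions and take on a motile, fibroblast-like form. Factors of the SNAI and ZEB families repress *Cdh1* and other epithelial genes by binding short DNA motifs called E-boxes, and the TWIST factors act in the same programme. N-cadherin (*Cdh2*) and vimentin are classical products of the mesenchymal state, EpCAM and E-cadherin of the epithelial one, and the programme is widely studied in the spread of carcinomas, colon cancer included.

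Expression was profiled in Colon26, a murine colon adenocarcinoma line of the BALB/c strain, and in its sublines LuM1, which metastasizes rapidly, and NM11, which metastasizes slowly. The comparisons asked how the highly metastatic subline differs from the slowly metastatic one and from the parental cells. All 3 lines were female in origin by their labels, were grown untreated in RPMI1640 medium with serum for 3 days, and differ in no labelled allele or agent. Each was measured once, on 1 single-colour Agilent array, so the differences have no replicate check and no test was possible. Each subline stands for itself, since no independent isolate of either was profiled. The error given with each signal is that of the scanner software, about 10.0% of the signal, and covers neither culture nor labelling.

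Signals were scaled so that each array had the same 75th percentile, 585, and are in arbitrary units. Between 49.9% and 53.8% of the probes on an array were well above background, which is the scanner software's flag for a measured spot. Where 1 line of a pair was not well above background, the ratio is a bound against the dimmest signal well above background on that array, which was 26.4 in Colon26, 20.1 in LuM1 and 19.6 in NM11, or against the dim probe's own signal where that was higher. A gene was called when 2 lines were at least 2-fold apart. In bulk RNA, fewer cells with a transcript and less of it in each cell cannot be told apart.

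The label of the lines was set against marker genes. Of 10 genes of the colon epithelium, the same 3 were well above background in every line, *Cdx2*, *Krt20* and *Gpa33*, with summed signals of 2635 in Colon26, 1100 in LuM1 and 1870 in NM11, while *Cdx1*, *Vil1*, *Lgr5*, *Muc2*, *Slc26a3*, *Tff3* and *Fabp2* were not. Of 5 general epithelial genes, *Krt8* was the 1 well above background in Colon26 and NM11, joined by *Epcam* in LuM1, and *Cdh1*, *Krt18* and *Krt19* were so in none. Of 5 fibroblast genes, 2 were well above background in Colon26 and 4 in each subline, with summed signals of 60114 in Colon26, 51078 in LuM1 and 111576 in NM11. *Thy1* was at 5.26 in Colon26, which was not well above background, against 19560 in LuM1 and 15416 in NM11. *Dcn* was likewise not well above background in Colon26, and was at 27503 in LuM1 and 9599 in NM11. *Pdgfra* was at 218 in Colon26, 3965 in LuM1 and 1286 in NM11, and *Lum* was not well above background in any line. *Col1a2* was at 59896 in Colon26, 49.6 in LuM1 and 85275 in NM11. Among 5 leukocyte genes, *Ptprc*, which defines these cells, was not well above background in any line, although *Cd68* was at 172 in Colon26, 5251 in LuM1 and 299 in NM11. The leukocyte genes summed to 5827, 12630 and 5103 in Colon26, LuM1 and NM11. Of 5 endothelial genes, *Pecam1* was the 1 well above background, at 51.3, 53.0 and 78.3. What part these markers have in the differences below was not tested.

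The promoters of *Snai1* and *Twist2*, 2 of the members whose signals differed most between lines, are shown together with that of *Epcam*, because the E-box letters CACCTG, or CAGGTG on the other strand, are the motif that SNAI and ZEB factors are known to bind. Each run is the 250 bases before the transcription start in the RefSeq annotation of GRCm38.p6, on the plus strand, and capitals mark the E-box letters. They lie at chr2:167537945-167538194 for *Snai1*, chr1:91801211-91801460 for *Twist2* and chr17:87635729-87635978 for *Epcam*.
Snai1: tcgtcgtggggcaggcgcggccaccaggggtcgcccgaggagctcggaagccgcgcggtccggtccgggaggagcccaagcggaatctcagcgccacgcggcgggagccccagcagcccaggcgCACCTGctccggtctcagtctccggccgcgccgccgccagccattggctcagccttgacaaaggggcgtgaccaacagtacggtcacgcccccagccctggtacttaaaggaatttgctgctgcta
Twist2: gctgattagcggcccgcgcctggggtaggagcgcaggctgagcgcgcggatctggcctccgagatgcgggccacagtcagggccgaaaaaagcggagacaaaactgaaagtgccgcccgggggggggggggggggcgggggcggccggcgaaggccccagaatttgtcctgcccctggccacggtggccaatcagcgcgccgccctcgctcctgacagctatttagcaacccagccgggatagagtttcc
Epcam: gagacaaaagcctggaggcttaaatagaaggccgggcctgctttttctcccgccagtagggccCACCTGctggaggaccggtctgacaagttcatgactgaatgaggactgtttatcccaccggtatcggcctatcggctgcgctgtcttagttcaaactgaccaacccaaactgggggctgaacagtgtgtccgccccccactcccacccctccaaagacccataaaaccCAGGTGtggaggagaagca
The *Snai1* window held the letters once, 126 bases before the start. The *Epcam* window held them in 2 places, 187 and 19 bases before the start, which 2.06% of all promoter windows did at least. The *Twist2* window did not hold them. Over the 9 windows listed for 6 members (*Snai1*, *Twist1*, *Twist2*, *Zeb2* with 4 start sites, *Vim* and *Epcam*), 2 held the letters, or 22.2%, and among all 32851 promoters the share was 17.2%. *Snai2*, *Zeb1*, *Cdh1* and *Cdh2* were the other members. A match is a description of the letters, not of binding.

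*Snai1*, which encodes the zinc-finger repressor Snail, differed most between the parental line and its sublines. Its signal was 190 ± 19.8 in Colon26, 1625 ± 163 in LuM1 and 1251 ± 125 in NM11. Both sublines therefore lay far above the parental line and within 2-fold of each other. The level in LuM1 was 8.53-fold that in Colon26, a log2 difference of 3.09 with a scanner error of 0.21, and the level in NM11 was 6.57-fold, or 2.71. Between the sublines the ratio was 1.30-fold, with a log2 difference of 0.38 against an error of 0.20. Over the other scalings and background corrections that difference ranged from 0.33 to 0.97. Of the 12394 genes measured in both LuM1 and Colon26, 176 (1.42%) were at least as much higher in LuM1, and 1.12% of 12468 were so in NM11. On the Colon26 array, 13 spots within 10 rows and 5 columns of the *Snai1* spot were well above background on that array alone, where the mean over all spots was 2.24. Whether these neighbours bear on the Colon26 value of *Snai1* was not tested.

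*Snai2*, which encodes the related repressor Slug, ran the other way. Its signal was 8332 ± 833 in Colon26, 2138 ± 214 in LuM1 and 3810 ± 381 in NM11. The parental line was highest and LuM1 lowest, and each neighbour in that order lay beyond the scanner error of the next. *Snai2* was 3.90-fold lower in LuM1 than in Colon26, at a log2 difference of −1.96, and 2.19-fold lower in NM11, at −1.13. In LuM1 over NM11 the log2 difference was −0.83. Of the measured genes, 2.0% were at least as far below Colon26 in LuM1, and 4.32% in NM11.

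*Twist2*, a basic helix-loop-helix factor that marks mesenchymal progenitors, was low in LuM1. Its signal was 6728 ± 673 in Colon26, 1811 ± 181 in LuM1 and 5737 ± 574 in NM11. LuM1 was 3.71-fold below Colon26, at a log2 difference of −1.89, and 3.17-fold below NM11, at −1.66. Colon26 and NM11 were −0.23 apart on the log2 scale, just over their scanner error of 0.20. Of the measured genes, 2.19% were at least as much lower in LuM1 than in Colon26 and 2.12% than in NM11.

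*Twist1*, the paralogue that drives mesenchymal fate in the embryo, stayed within 2-fold across the lines. It was at 782 ± 78.4 in Colon26, 1016 ± 102 in LuM1 and 728 ± 72.9 in NM11. LuM1 was highest by 0.38 over Colon26 and 0.48 over NM11 on the log2 scale, and Colon26 and NM11 did not differ beyond the scanner error, at −0.10.

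*Zeb2*, a zinc-finger and homeodomain repressor, was highest in LuM1. The signal of its brightest probe was 969 ± 97.1 in Colon26, 1830 ± 183 in LuM1 and 1228 ± 123 in NM11. LuM1 was 1.89-fold over Colon26, or 0.92 on the log2 scale, which is short of 2-fold. It passed 2-fold with no scaling, with scaling to *Hprt*, with quantile normalization and in the values as the authors processed them, and its range over the alternatives was 0.86 to 1.36. A second probe gave 944, 1846 and 1093 in Colon26, LuM1 and NM11, and so the same order. A further, dim probe was at 30.1 in Colon26, 53.8 in LuM1 and 19.8 in NM11, where it was not well above background. In NM11 over Colon26 the 3 *Zeb2* probes disagreed, at 0.34, 0.21 and a bound of at most −0.61 on the log2 scale.

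*Zeb1*, its paralogue, was at 363 ± 36.7 in Colon26, 345 ± 34.8 in LuM1 and 508 ± 50.9 in NM11. NM11 was highest, by 0.48 over Colon26 on the log2 scale, and LuM1 and Colon26 did not differ beyond the scanner error, at −0.07. The second *Zeb1* probe gave 131, 123 and 166 in Colon26, LuM1 and NM11, in the same order. Scaling to *Hprt* brought the NM11 difference to −0.00 and turned LuM1 over NM11 from −0.56 to 0.03.

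**Figure D1:**
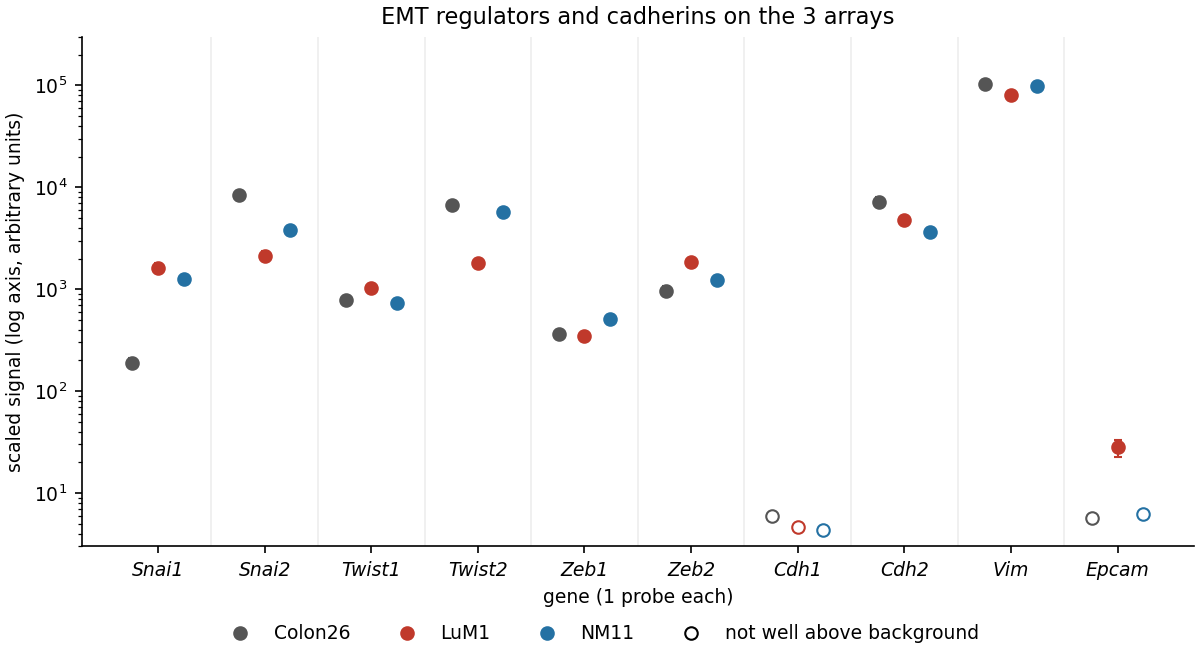
Scaled signal of the 10 members on a log axis, with 1 array per line. Bars are the scanner software's error, mostly smaller than the points, and open points are not well above background. *Snai1* is low in Colon26 at 190, *Snai2* and *Twist2* are lowest in LuM1 at 2138 and 1811, and *Cdh1* is open in all 3 lines.

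Both epithelial members were at or near background. *Cdh1*, which encodes E-cadherin, was at 5.91 in Colon26, 4.65 in LuM1 and 4.29 in NM11 and was not significantly above background on any array, so it has no ratio. Signals of this size equalled their own scanner error. *Epcam* was at 5.73 in Colon26, 28.0 ± 5.18 in LuM1 and 6.24 in NM11, and was well above background in LuM1 alone. LuM1 thus stood at least 1.06-fold above Colon26 and at least 1.43-fold above NM11. Taken at face value, with no filter on dim probes, the log2 difference was 2.29 over Colon26 and 2.17 over NM11. *Krt8*, which encodes a keratin of simple epithelia, was at 28.9 ± 6.36 in Colon26, 108 ± 11.6 in LuM1 and 37.1 ± 5.59 in NM11, and was the only gene of the epithelial list past 2-fold, at 1.89 in LuM1 over Colon26 and 1.54 over NM11, but not with normexp. The other 3 genes of that list above background in some line were *Cldn7*, *Muc1* and *Tjp1*, and *Cldn7* and *Tjp1* were within 2-fold in every comparison. *Cldn7*, a claudin gene, was at 91.4 in Colon26, 58.1 in LuM1 and 93.6 in NM11. *Muc1* was at 25.5 in LuM1 and 41.7 in NM11 and not well above background in Colon26. Its NM11 level was at least 1.58-fold that in Colon26, a bound that cannot show whether it passed 2-fold. *Tjp1*, which encodes a tight junction scaffold, was at 2348, 2362 and 2178.

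Both mesenchymal structural members were measured in every line. *Cdh2*, which encodes N-cadherin, was at 7234 ± 723 in Colon26, 4742 ± 474 in LuM1 and 3625 ± 363 in NM11. It was highest in the parental line, and LuM1 lay −0.61 and NM11 −0.997 from it on the log2 scale. The NM11 ratio of 0.501 stood just inside 2-fold, and passed it with no scaling, with scaling to *Hprt* and with the spike-in controls, over a range of −1.49 to −0.96. *Vim*, which encodes vimentin, was at 102137 ± 10214 in Colon26, 80065 ± 8006 in LuM1 and 98371 ± 9837 in NM11. Colon26 and NM11 did not differ beyond the scanner error, at −0.05. LuM1 was −0.35 from Colon26 and −0.30 from NM11, and the first sign turned with quantile normalization and in the authors' values, the second also with *Hprt* and the spike-in controls.

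**Figure D2:**
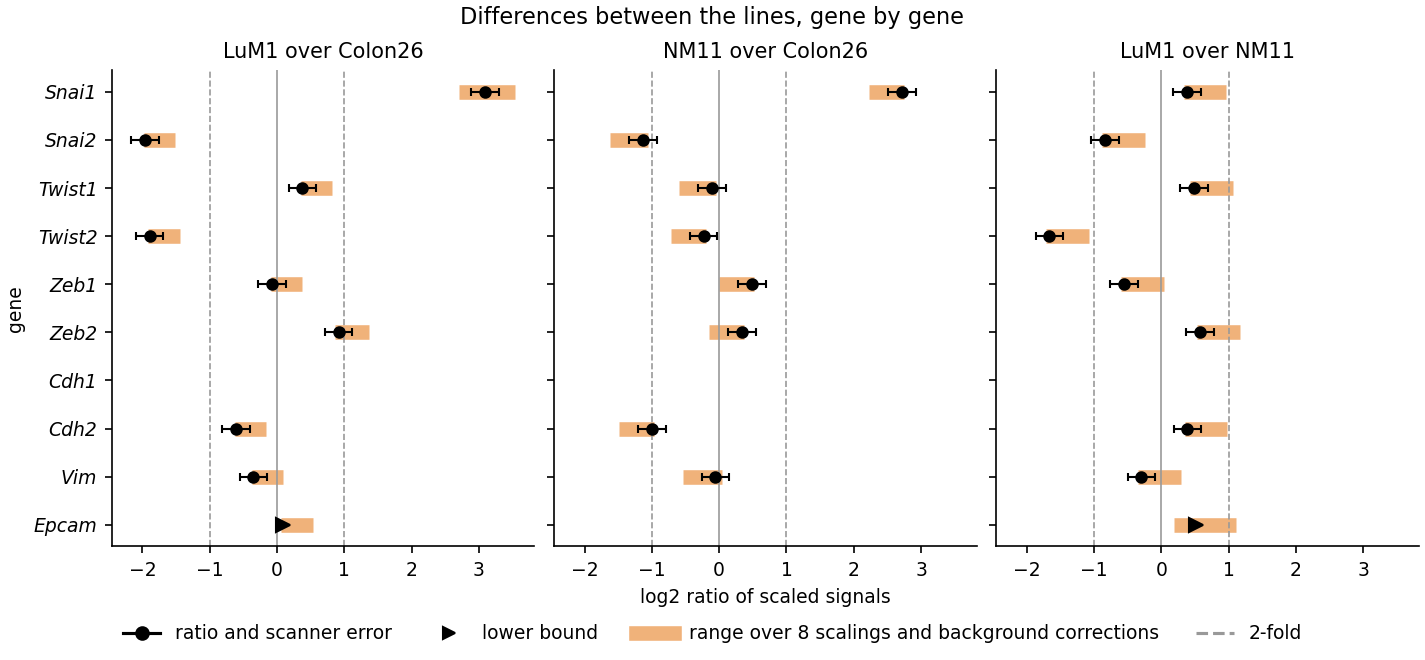
Log2 ratio of each member in the 3 comparisons, with the scanner error as a black bar and the range over 8 other scalings and background corrections as a coloured band. Triangles are lower bounds for *Epcam*, and dashed lines mark 2-fold. *Snai1* lies beyond 2-fold above Colon26 in both sublines, *Snai2* below, and *Twist2* below in LuM1.

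Counted over the set, 9 members could be compared between LuM1 and Colon26, of which 1 was called as higher in the subline (*Snai1*) and 2 were lower (*Snai2* and *Twist2*). Over all 14350 genes compared, 12.9% were higher and 11.7% lower, and 24.6% were called in either direction. Of 8 members compared between NM11 and Colon26, 1 was higher (*Snai1*) and 1 lower (*Snai2*), against 8.17% and 7.73% of 14106 genes, or 15.9% in either direction. Of 9 compared between LuM1 and NM11, none was higher and 1 was lower (*Twist2*), against 11.1% and 8.5% of 14412 genes, or 19.6% in either direction. Each total of called members was within 1 gene of the number that the background share gives. The median log2 difference of the members measured in both lines was −0.21, −0.08 and 0.04 in the 3 comparisons, beside −0.13, −0.02 and −0.11 over all measured genes. Any 2 of the 3 comparisons share an array, and so their values are given side by side and not as separate evidence.

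**Figure D3:**
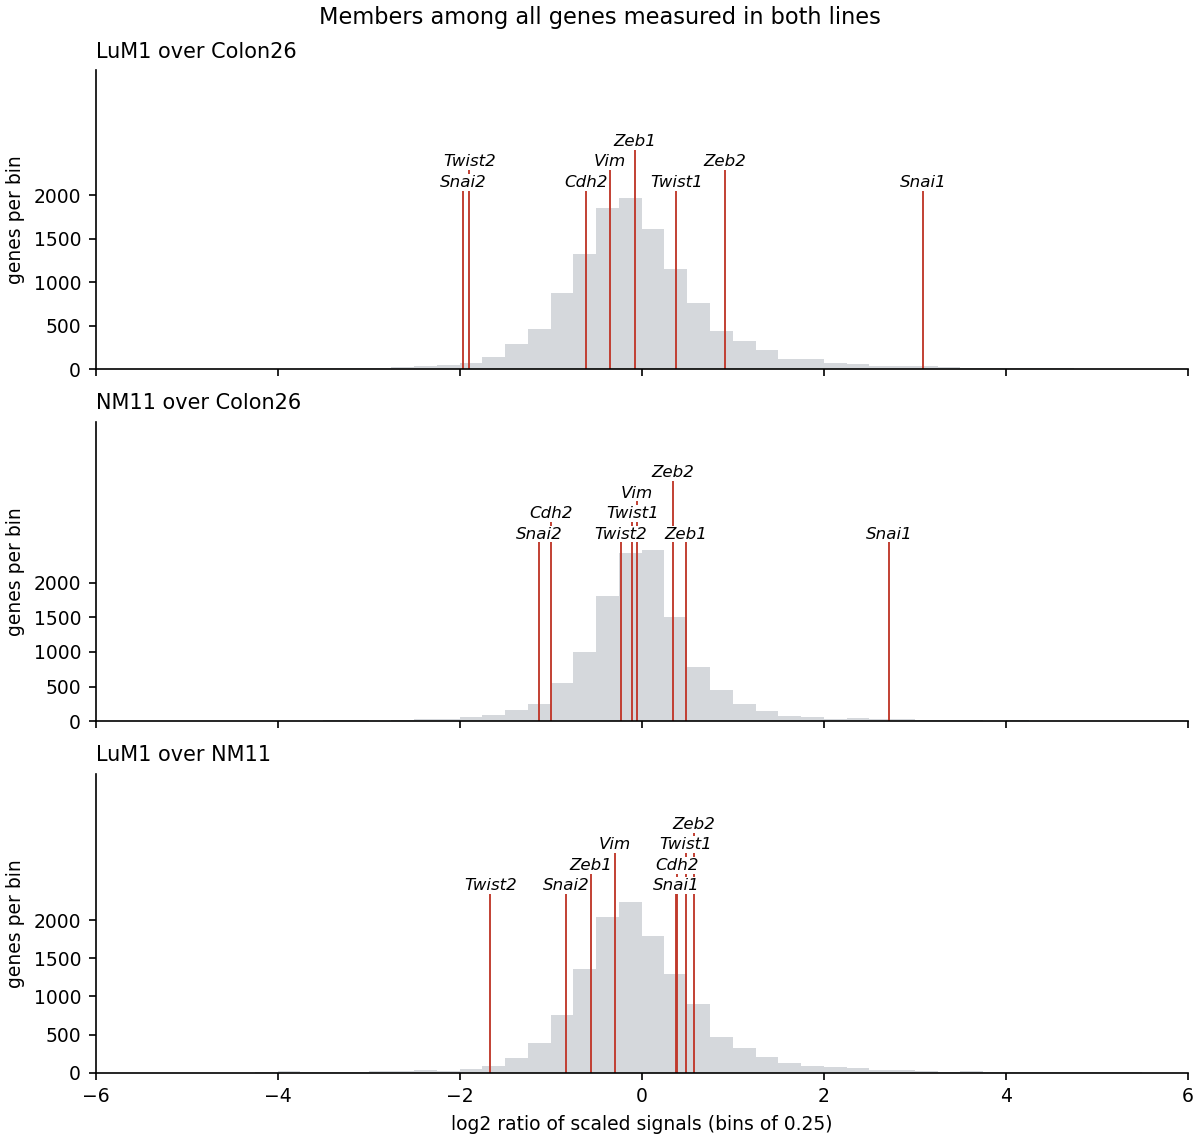
Number of genes per bin of log2 ratio among all genes measured in both lines (grey), with the members measured in both lines as red lines. *Snai1* stands at 3.09 and 2.71 over Colon26 in the sublines, and *Twist2* at −1.66 in LuM1 over NM11, while most members lie within the bulk of the genes.

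The 2 genes whose pair of log2 differences from Colon26 lay nearest to that of *Snai1*, among 12245 genes measured on all 3 arrays, were *Casd1*, at 3.15 in LuM1 and 2.82 in NM11, and *Plxnb1*, at 2.96 and 2.63. *Casd1* encodes a sialic acid acetyltransferase and *Plxnb1* a semaphorin receptor. With 3 arrays many genes can share a pattern, and 3 genes in all lay within the scanner error of it. *Snai1* was the 1 member with a difference of at least 4-fold among those measured on all 3 arrays, and so the 1 for which near patterns were listed.

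The other genes around the transition were taken from 10 lists of 110 genes, of which 109 had a named probe and 77 were well above background in some line. Over these lists 9 genes were at least 2-fold higher and 13 lower in LuM1 than in Colon26 of 73 compared, 5 and 11 in NM11 of 74, and 9 and 11 in LuM1 over NM11 of 75. Over all genes compared, 12.9% were higher and 11.7% lower in LuM1 than in Colon26, and 8.17% and 7.73% in NM11. In LuM1 over NM11 the shares were 11.1% and 8.5%.

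Of 9 other transcription factors of the transition, 6 were compared in LuM1 over Colon26. Of these 2 were higher and 2 lower, where 12.9% and 11.7% of all genes were. *Prrx1*, a homeobox inducer of the transition, was at 2291 ± 229 in Colon26, 8997 ± 900 in LuM1 and 7679 ± 768 in NM11. Both sublines were above Colon26, by 1.97 and 1.74 on the log2 scale, and a second probe gave 2.30 and 2.03. *Foxc1*, a forkhead factor, was lower in both sublines, at 1136, 267 and 385 in Colon26, LuM1 and NM11, with log2 differences from Colon26 of −2.09 and −1.56. *Foxc2* was at 190 ± 19.6 in LuM1 and not well above background in the other lines. That is at least 7.19-fold over Colon26, but 6 nearby spots were also well above background in LuM1 alone, where the mean over all spots was 2.85. *Snai3*, *Gsc* and *Klf8* were not well above background in any line.

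Of 12 factors of the epithelial state, 5 were compared between each subline and Colon26, with 2 lower and none higher in each. Among all genes compared, 11.7% were lower in LuM1 and 7.73% in NM11. *Foxa1*, a pioneer factor of endodermal epithelia, was at 850 ± 85.2 in Colon26 and 167 ± 17.3 in NM11, and was not well above background in LuM1. It was 5.08-fold lower in NM11 than in Colon26, and LuM1 stood at least 42.2-fold below Colon26. *Grhl1*, a grainyhead factor, was at 53.7 in Colon26, 14.8 (not well above background) in LuM1 and 25.3 in NM11. Its calls were lost with normexp, and the LuM1 call also in the authors' values. *Ovol2*, *Klf4* and *Esrp1* were within 2-fold of Colon26 in both sublines by the probe that stands for each gene. For *Ovol2* that probe was at 2232 in Colon26, 2503 in LuM1 and 2691 in NM11. The other probes of *Ovol2* and *Esrp1* were not well above background in any line. *Ovol1*, *Grhl2*, *Grhl3*, *Esrp2*, *Elf3*, *Elf5* and *Foxa2* were not well above background in any line.

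Of 21 other cadherins, 10 were compared between LuM1 and Colon26 by the probe that stands for each gene. By these probes 5 were lower in LuM1, with none higher, where 11.7% of all genes compared were lower. The probe that stands for *Cdh22* was well above background in LuM1 alone, at least 1.44-fold over Colon26. Its other probe, at 64.2 and likewise so in LuM1 alone, was past 2-fold, at least 2.43-fold over Colon26. Between NM11 and Colon26, 4 of 12 were lower and none higher, against 7.73% of all genes. *Cdh26* was at 7255 ± 726 in Colon26, 344 ± 34.7 in LuM1 and 4756 ± 476 in NM11. LuM1 was 21.1-fold below Colon26 and 13.8-fold below NM11, and the second probe gave bounds in the same direction. *Cdh19*, a cadherin of neural crest cells, was at 1216 ± 122 in Colon26 and 125 ± 16.3 in LuM1 and was not well above background in NM11, which made it 9.76-fold lower in LuM1 and at least 62.2-fold lower in NM11. Near the *Cdh19* spot, 16 spots were bright in Colon26 alone, where the mean over all spots was 2.24, and their part in its values was not tested. *Cdh11*, the cadherin of osteoblasts and stroma, was at 18033, 5628 and 8997, and its LuM1 difference of −1.68 passed 2-fold, though a second probe gave −0.51. In NM11 its ratio to Colon26 of 0.499 just passed 2-fold, and the second probe gave −0.93. *Cdh24* and *Cdh4* complete the 5, and each rested on 1 probe that was well above background in Colon26 alone, at 247 and 173. Their other probes were not well above background in any line, and 14 and 6 nearby spots were likewise bright in Colon26 alone. Without such clustered spots the cadherin counts were 3 for LuM1 and 2 for NM11.

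The catenins and adaptors that tie cadherins to actin stayed within 2-fold of Colon26 in both sublines by the probe that stands for each gene, 6 of 6 compared. Among all genes compared, 24.6% were past 2-fold in LuM1 and 15.9% in NM11. β-catenin (*Ctnnb1*) was at 2872 in Colon26, 2507 in LuM1 and 5198 in NM11, and its second probe gave 2.05-fold in NM11 over Colon26. Vinculin (*Vcl*) was at 8097, 4976 and 11546. Both were over 2-fold lower in LuM1 than in NM11, at −1.05 and −1.21, but lost this with scaling to *Hprt* or the spike-in controls, with quantile normalization and in the authors' values, and *Ctnnb1* also with no scaling and with normexp.

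Of 8 other intermediate filament genes compared, 2 were lower in LuM1 than in Colon26, 3 in NM11 and none higher. The shares of all genes that were lower were 11.7% and 7.73%. 2 neurofilament genes were lower in both sublines. *Nefm* was at 4434 ± 443 in Colon26, 171 ± 17.7 in LuM1 and 1718 ± 172 in NM11, with log2 differences from Colon26 of −4.70 and −1.37 and of −5.11 and −1.41 by its second probe. *Nefl* was at 4168, 841 and 1685, or −2.31 and −1.31. *Des*, which encodes the filament of muscle, was at 64.2, 58.9 and 6.38, the last not well above background, and its NM11 call was lost with normexp. *Lmna*, which encodes lamin A, was at 77476, 45893 and 109355, and its difference of −1.25 between LuM1 and NM11 passed 2-fold but was lost in the 4 settings named for both genes above. Its dimmest probe gave 1.07 in NM11 over Colon26, where the brightest gave 0.50.

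Of 12 mesenchymal genes, 3 were at least 2-fold higher and 1 lower in each subline than in Colon26, of 11 and 12 compared. Among all genes, 12.9% were higher and 11.7% lower in LuM1, and 8.17% and 7.73% in NM11. *Mmp2*, a gelatinase, was at 5.81 in Colon26, not well above background, and at 1512 ± 151 in LuM1 and 1691 ± 169 in NM11, which is at least 57.3-fold and 64.0-fold higher. *Col3a1*, a fibrillar collagen gene, was at 294 ± 29.9, 1170 ± 117 and 2655 ± 265, or 1.99 and 3.18 over Colon26. *Fn1*, which encodes fibronectin, was at 61263, 146728 and 81606, and its 1.26 in LuM1 was the other LuM1 call. *Tnc* was at 201 ± 20.5 in NM11 and not well above background in the other lines. *Col1a1* was at 4918, 2247 and 6045, and its LuM1 difference of −1.13 was lost with quantile normalization and in the authors' values. *Fap* was called as lower in NM11, at −1.31, which was lost with normexp, and was at −0.16 in LuM1. Its other probe, at 171 in Colon26 and not well above background in either subline, gave at most −3.08 in LuM1 and −3.12 in NM11. *S100a4* and *Pdgfrb* lay no more than 0.35 from Colon26 on the log2 scale in both sublines. *Axl* was at −0.80 in LuM1 and −0.22 in NM11 over Colon26, *Sparc* at −0.70 and −0.06, and *Itga5* at 0.60 and 0.67. The probes of *Acta2*, which encodes smooth muscle actin, disagreed. The brightest gave −0.08 in LuM1 and 0.15 in NM11 over Colon26. Another was at 48.6 in Colon26, 1766 in LuM1 and 1641 in NM11, or 5.18 and 5.08, and a further probe was not well above background in any line.

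Of 10 corepressor genes, 1 was past 2-fold in LuM1 over Colon26, the LIM protein gene *Ajuba*, at 4029 in Colon26, 1199 in LuM1 and 2360 in NM11, and none was in NM11. The shares of all genes past 2-fold were 24.6% and 15.9%. Of 7 genes of SNAI protein turnover, 2 were higher in LuM1 and none in NM11, where 12.9% and 8.17% of all genes were. *Pak1*, a kinase that phosphorylates Snail, was at 178, 493 and 219, or 1.47 in LuM1 over Colon26, and the ubiquitin ligase gene *Fbxl5* was at 3216, 7057 and 3252, or 1.13, and 0.70 by its second probe.

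Of 6 genes of E-cadherin and EpCAM cleavage compared in LuM1 over Colon26, 1 was higher, where 12.9% of all genes were. *Spint1*, a membrane inhibitor of serine proteases, was at 370 ± 37.3 in LuM1 and not well above background in Colon26 and NM11, at least 14.0-fold and 18.9-fold higher, with bounds in the same direction by its second probe. *Fhl2*, a LIM protein gene, was at 5427 in Colon26, 2885 in LuM1 and 17722 in NM11, which put NM11 at 3.27-fold over Colon26 and LuM1 6.14-fold below NM11.

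**Figure D4:**
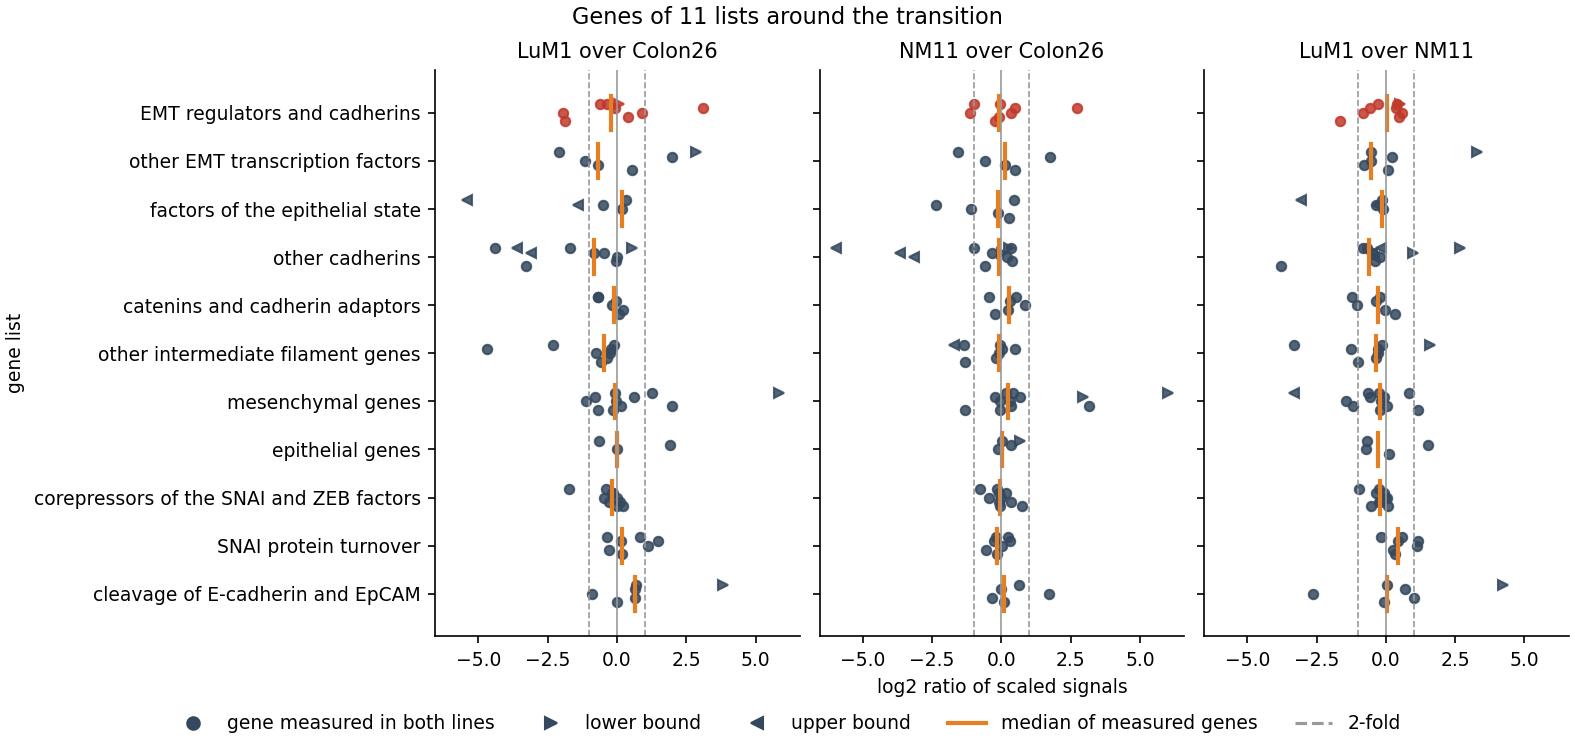
Log2 ratio of every gene with a ratio or bound in the members' list (red) and the 10 other lists, for the 3 comparisons. Orange bars are the medians of genes measured in both lines, triangles are bounds and dashed lines mark 2-fold. Of the other cadherins, 5 and 4 lie beyond 2-fold to the left in the comparisons with Colon26, or 3 and 2 without clustered spots, while their medians are −0.84 and −0.07.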

How the data were processed

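Total RNA (0.1 µg) from each line was labelled with Cy3 and hybridized to 1 array of 1 slide. Per the file headers, the authors deposited spot intensity values from Agilent Feature Extraction 11.5.1.1, background-subtracted and detrended but not scaled between arrays. They also deposited processed intensity values for the series, which are the spot intensity multiplied by 0.654 (Colon26), 0.829 (LuM1) or 0.706 (NM11), whose basis is not given in the sources used here. No spot was saturated, and none of the members' spots was an outlier.

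Control spots and outlier spots (137, 74 and 99) were left out, signals of probes spotted 10 times were averaged, and arrays were brought to a common 75th percentile over all spots. Probes were named through RefSeq accessions of GRCm38.p6, which named 32989 of 56605. A gene was its probe with the highest mean log2 intensity. Ratios were computed with Python 3.11.15, numpy 2.4.6 and pandas 2.3.3. With 1 array per line the number of arrays limits the precision, and calls rest on a fold of 2. The computation was tested on simulated data.

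The members and lists were chosen with earlier results of these data known. All members were named, from each other list up to 4 genes with the largest difference among those past 2-fold, and for members past 4-fold the 2 nearest patterns. 1 gene that this rule names is not reported here. *Fn1*, *Fap*, *Cdh11*, *Cdh22*, *Ovol2*, *Klf4*, *Esrp1*, *Cldn7*, *Muc1*, *Tjp1*, *Acta2*, *S100a4*, *Pdgfrb*, *Axl*, *Sparc*, *Itga5* and the marker genes were named after their values were seen. Alternatives were no scaling, scaling to the median, *Hprt*, E1A spike-in controls or quantiles, normexp (limma 3.58.1, R 4.3.3, offset 50) on the median brightness, since the files used here hold no mean column, the authors' values, other rules for dim probes and for a gene's probe, and a 4-fold threshold. The 75th percentile over distinct probes, and leaving out clustered spots of 1 array (at least 5 others within 10 rows and 5 columns that were well above background on that array alone at a signal of at least 50), were added after seeing the data.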

Additional observations from a re-analysis of the deposited data

Results flagged for a closer look

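For 8 of the list and marker genes, LuM1 lay on one side of Colon26 and NM11 on the other, both beyond the scanner error. With 1 array per line the difference between the sublines was not tested. *Fhl2* had log2 differences from Colon26 of −0.91 in LuM1 and 1.71 in NM11. *Col1a1* had −1.13 and 0.30, and its NM11 sign turned with scaling to *Hprt* or the spike-in controls. *Vcl* had −0.70 and 0.51, *Lmna* −0.76 and 0.50, and with scaling to *Hprt* their NM11 values were 0.02 and 0.01. *Psen2* had 0.66 and −0.35, and its second probe gave 0.77 and 0.27. *Cdh8*, a cadherin gene, had −0.48 and 0.35, and its NM11 value was −0.14 with scaling to *Hprt*. Among the markers, *Itgam* had 0.44 and −0.24, and *Col1a2* had −10.24 and 0.51, or 0.02 with scaling to *Hprt*. None of the 10 members did so.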

How the results depend on the processing

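No paired analysis was possible because each line was measured on 1 array. The member counts stayed within 1.5 times of those reported in 36 recomputations and moved further in 6, and no member called at 2-fold changed sign. For LuM1 over NM11 the count of 1 became 4 with scaling to *Hprt* (*Twist1*, *Twist2*, *Zeb2* and *Epcam*), and 2 with probes significantly above background and 2 with no filter on dim probes (*Twist2* and *Epcam*). At 4-fold the counts were 1 for LuM1 over Colon26 and 1 for NM11 over Colon26, both *Snai1*, and 0 for LuM1 over NM11. The cause was not tested beyond what each setting changes by its construction. Over all alternatives *Snai1* ranged from 2.71 to 3.54 in LuM1 and from 2.23 to 2.75 in NM11, *Snai2* from −1.98 to −1.52 and from −1.62 to −1.05, and *Twist2* in LuM1 from −1.91 to −1.45. Signs of small differences turned for *Zeb1*, *Zeb2* and *Vim*. *Zeb2* in NM11 over Colon26 went from 0.34 to −0.15 with scaling to *Hprt*. The scalings moved the median of all measured genes by 0.45 on the log2 scale for LuM1 over Colon26 and 0.41 for LuM1 over NM11 in the authors' values, by −0.49 for NM11 over Colon26 and 0.59 for LuM1 over NM11 with *Hprt*, and by −0.34 and 0.33 with the spike-in controls, so that a member's difference moved with them. The share of called genes that were higher in LuM1 than in Colon26, 52.5%, became 77.7% in the authors' values. For NM11 over Colon26 it went from 51.4% to 20.1% with *Hprt* and 28.3% with the spike-in controls. For LuM1 over NM11 it went from 56.6% to 87.8% with *Hprt*, 77.7% with the spike-in controls, 81.4% in the authors' values and 68.6% with no scaling. Over all genes, 2244 were called in NM11 over Colon26, against 3412 with *Hprt*, 1442 with normexp and 3997 with probes significantly above background. At 4-fold the 3 comparisons called 1386, 863 and 1009 genes, against 3534, 2244 and 2824. Of the counts for other lists, 52 moved by over 1.5 times and 368 did not. Dim signals are the limit for *Cdh1* and *Epcam*, which were not well above background in 2 lines or more.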
